A study of Homo sapiens with 2 samples.

Results

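The S100 genes encode small proteins that bind calcium through EF-hand loops, a helix-loop-helix fold, and this account covers the 8 members S100A9, S100P, S100A10, S100A11, S100A6, S100A4, S100A13 and S100A16, out of 21225 genes analysed. They were taken by gene name from the tables of RNA-seq levels of 2 libraries of Huh7, a human hepatoma cell line, 1 from cells given an shRNA against E2F6 and 1 from cells given a control shRNA. E2F6 is a member of the E2F transcription factors that represses genes, and the comparison asked which transcripts differ when it is knocked down. The sources used here do not give the shRNA sequences or the time of harvest, and each group is 1 transfected culture of 1 line as far as the labels tell. The labels name liver as the tissue, and all 12 hepatocyte markers chosen for the check were at a mean of 1 FPKM or more, although Huh7 is a tumour line and not normal liver.

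S100 proteins mostly act as dimers. On binding calcium they expose a surface that grips partner proteins such as annexins, myosins and cytoskeletal regulators, and some are released from cells and act on receptors including AGER (RAGE) and TLR4. S100A9 pairs with S100A8 as calprotectin, an abundant protein of neutrophils and monocytes, and S100A8 was not analysed here. S100P, S100A4, S100A6, S100A10 and S100A11 are well known from carcinoma cells.

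Levels are taken to be in FPKM, which divides a gene's fragments by the length of its transcripts and the size of the library. Comparison of levels between genes is only rough, since the headers name no unit and the annotation behind the values is not given. Differences are on the log2(FPKM + 1) scale, E2F6 shRNA minus control shRNA. The rule of size counts a gene as higher or lower where its mean is 1 FPKM or more and its difference reaches 1 or -1. With 1 library per group the conditions could not be tested, and no difference has a replicate check. Intervals are 95% counting intervals from estimated fragments, cover counting error only, and are approximate for genes with more than 1 annotated transcript. The members were chosen by family and with the difference in FPKM between these libraries, that of S100A9 above all, already known, so their differences are a description. The targeted gene, E2F6, was at 0.997 FPKM in the E2F6 shRNA library and 2.54 FPKM in the control shRNA library, which is 39.3% of the control (25.8 to 59.3%), from 33 and 97 estimated fragments. Its difference of -0.82 falls short of the rule of size, and with the shortest transcript, 9 and 27 fragments, the interval is 16.1 to 85.0%.

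S100A9 was far lower in the E2F6 shRNA library, S100P was lower by a smaller step, and S100A10 was the member with the most positive difference. Of the 8 members 1 was lower by the rule of size, S100A9, none was higher and 7 were not past it. Over all 11574 genes at the minimum, 3.23% were past the rule in either direction, 2.06% lower and 1.17% higher. The median difference of the members was 0.01, against -0.00 for all genes at the minimum. Above 0 were 4 of the 8 members and 49.7% of all genes at the minimum. The members therefore did not share a direction, and nothing is read from these counts, since the members were chosen with the same contrast known.

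**Figure D1:**
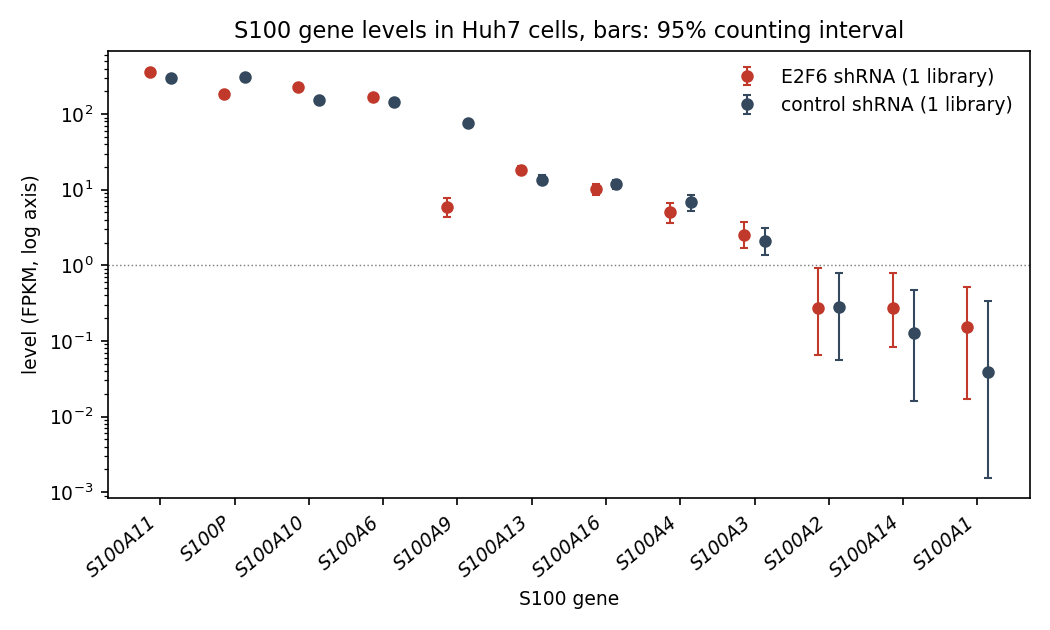
Levels of the 12 S100 genes of the tables in FPKM on a log axis, in order of their mean level, with the E2F6 shRNA library left of the control shRNA library and bars for the 95% counting interval. S100A9 is the one gene whose points stand more than 1 log2 unit apart among those above 1 FPKM (dotted line), at 5.88 FPKM against 75.8 FPKM.

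S100A9 was at 5.88 FPKM in the E2F6 shRNA library (4.37 to 7.76) and at 75.8 FPKM in the control shRNA library (70.5 to 81.5). This is a 12.9-fold lower level (9.67 to 17.5) and a difference of -3.48. The gene has 1 annotated transcript of 577 bases, so its fragments could be read directly from the values, at 50 in the E2F6 shRNA library and 750 in the control shRNA library. S100A9 stood at place 2 from the lowest among the differences of 11574 genes and at place 1 among 9904 protein-coding ones. In order of level it ranked 5019 among 21225 genes in the E2F6 shRNA library, against 386 in the control shRNA library. The 3 protein-coding genes nearest to it by distance over log2(FPKM + 1) in the 2 libraries, among 5200 with a mean of at least 5 FPKM, were ORM1 at a distance of 1.07, RP11-1035H13.3 at 1.29 and MAGEF1 at 1.29. Their levels were 13.1 against 62.1 FPKM for ORM1, which encodes the acute phase protein orosomucoid, 9.60 against 34.2 FPKM for RP11-1035H13.3 and 13.2 against 44.4 FPKM for MAGEF1, with the E2F6 shRNA library first. All lay more than 1 log2 unit from S100A9, and 2 libraries give only 1 difference per gene. In bulk RNA, fewer cells with S100A9 and less S100A9 RNA per cell cannot be told apart.

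The promoter of S100A9 is shown because this gene carries the one call of the family. Those of S100P and S100A4 are shown because their only promoter shares the placed TATAAA with it. Those of S100A10 and S100A6 hold the core that E2F factors bind. S100A13, which has TATAAA and that core in different promoters, is not printed. All sequences shown are RefSeq sequences on GRCh38.p14, read 5′ to 3′ on the gene's strand and ending at the base before the annotated start. Capitals mark TATAAA in the first 3 and GCGGGA or its reverse complement in the last 2.
S100A9, chr1:153357604-153357853, plus strand: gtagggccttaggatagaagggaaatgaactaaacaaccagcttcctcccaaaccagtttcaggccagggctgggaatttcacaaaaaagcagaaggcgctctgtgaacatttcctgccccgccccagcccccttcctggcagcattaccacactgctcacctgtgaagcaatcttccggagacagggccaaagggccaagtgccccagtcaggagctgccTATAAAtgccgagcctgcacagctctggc
S100P, chr4:6693788-6693877, plus strand: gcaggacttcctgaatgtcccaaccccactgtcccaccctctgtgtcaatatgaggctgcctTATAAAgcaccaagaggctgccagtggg
S100A4, chr1:153545807-153545896, minus strand: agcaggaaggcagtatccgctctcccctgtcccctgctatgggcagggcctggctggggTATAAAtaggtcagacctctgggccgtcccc
S100A10, chr1:151993860-151993949, minus strand: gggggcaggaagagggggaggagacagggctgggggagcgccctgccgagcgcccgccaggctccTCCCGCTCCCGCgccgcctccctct
S100A6, chr1:153535992-153536081, minus strand: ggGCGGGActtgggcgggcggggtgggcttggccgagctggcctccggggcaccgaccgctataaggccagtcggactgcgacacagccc

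All 8 members had a promoter in the RefSeq table, 11 promoters in all, each of 300 bases with 250 before the start. The TATA box letters TATAAA began 29 bases before the start in S100A9, 28 in S100P and 31 in S100A4, where the element usually stands. S100A13 has 3 promoters, and the second held TATAAA 29 bases before its start. On either strand anywhere in the 300 bases, TATAAA occurred in 11.5% of all 35116 promoters, and on the gene's strand from 40 to 20 bases before the start in 2.30%. The 3 genes whose only RefSeq promoter had the placed element, S100A9, S100P and S100A4, had differences of -3.48, -0.76 and -0.36. S100A13, with it in 1 of its promoters, had 0.41. Without these exact letters there were S100A16 at -0.20, S100A6 at 0.22, S100A11 at 0.24 and S100A10 at 0.58, so both groups held differences above and below 0. For this element only TATAAA was counted, and the printed S100A6 promoter holds the near match TATAAG close to its end. S100A6 is therefore not shown to lack a TATA box. This grouping was made after the values were seen, and 6 motifs were searched.

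The E2F core GCGGGA was found in the promoters of S100A10, 25 and 19 bases before the start, of S100A6, 88 bases before it, and in the first promoter of S100A13, 170 bases before it. It occurred in 26.9% of all promoters. Neither it nor the E-box CACGTG, found in 7.26% of all promoters and in none of the members' promoters, was in the 300 bases of S100A9. The C/EBP pattern TTNNGNAA occurred in 6 members, in S100A9 at 173 bases before the start and again after it, and in 36.8% of all promoters. The GC box GGGCGG was in 6 members and 45.0% of promoters, where CCAAT was in 2 members and 34.6%. A member was counted where any of its promoters matched, whereas the shares are per promoter, and the 8 members have 11 promoters. The member counts can therefore not be set directly against these shares. Both strands were searched for each motif, and in the S100A6 promoter the GCGGGA overlaps a GGGCGG. A match is a string of letters and does not show that a factor was bound in these cells.

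S100P had the highest value of the members in the control shRNA library, with an interval that overlapped that of S100A11 (292 to 313 FPKM). The S100P protein, first found in placenta, binds the cytoskeletal linker ezrin and the receptor RAGE. It was at 185 FPKM in the E2F6 shRNA library (178 to 193) and at 314 FPKM in the control shRNA library (305 to 324). The difference of -0.76 is a 1.69-fold lower level (1.61 to 1.78), short of the rule of size, and 4.85% of genes at the minimum had a lower difference. S100P is the one member outside the chromosome 1 cluster, on chromosome 4. Its binding protein S100PBP was at 0.960 FPKM in the E2F6 shRNA library and 1.94 FPKM in the control shRNA library, a ratio of 0.494 (0.263 to 0.893) that rests on 17 and 40 estimated fragments.

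S100A10, also called p11, does not respond to calcium and is the light chain of a complex with annexin A2 at the cell membrane. It was at 231 FPKM in the E2F6 shRNA library and 155 FPKM in the control shRNA library, a ratio of 1.49 (1.40 to 1.59) and a difference of 0.58. Of the genes at the minimum 94.8% had a lower difference. ANXA2, the heavy chain of that complex, was at 53.8 FPKM in the E2F6 shRNA library and 34.9 FPKM in the control shRNA library, a ratio of 1.54 (1.38 to 1.73) and a difference of 0.61. AHNAK, a very large scaffold protein that the complex binds, was at 95.4 against 80.3 FPKM. Neither partner passed the rule, and the subunits of the complex had ratios with overlapping intervals. Such overlap is not particular to the complex. RPLP0, the highest of 14 housekeeping genes with a median difference of 0.16, had a ratio of 1.47 (1.37 to 1.58).

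S100A11, which binds annexin A1, was at 358 FPKM in the E2F6 shRNA library and 302 FPKM in the control shRNA library, a ratio of 1.18 (1.12 to 1.24). S100A6 (calcyclin), which binds CACYBP, was at 167 FPKM in the E2F6 shRNA library and 143 FPKM in the control shRNA library, a ratio of 1.17 (1.08 to 1.26). These modest ratios lay near those of 14 housekeeping genes, whose median difference was 0.16, beside 0.24 for S100A11 and 0.22 for S100A6. After a correction for transcript GC content the differences were 0.13 for S100A11 and 0.07 for S100A6, beside a median of 0.07 for the housekeeping genes. CACYBP was at 9.05 against 10.8 FPKM and ANXA1 at 5.98 against 4.77 FPKM. For S100A11 there are 2 pseudogenes named after it in GENCODE release 29, and reads may be divided with these.

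S100A13, which takes part in the release of proteins that lack a signal peptide, was at 18.4 FPKM in the E2F6 shRNA library and 13.6 FPKM in the control shRNA library, a ratio of 1.35 (1.11 to 1.63). The gene shares 24.2% of its exon bases on the same strand with the non-coding gene RP1-178F15.5, which was at 1.59 FPKM in the E2F6 shRNA library and 2.55 FPKM in the control shRNA library, and 10.6% on the other strand with S100A1. Its level is therefore uncertain, since it is not known whether strand was used. S100A16 was at 10.2 FPKM in the E2F6 shRNA library and 11.8 FPKM in the control shRNA library (ratio 0.862, 0.692 to 1.08). S100A4, a protein linked to cell motility that binds the non-muscle myosin heavy chain MYH9, was at 5.08 FPKM in the E2F6 shRNA library and 6.81 FPKM in the control shRNA library (ratio 0.746, 0.497 to 1.10). The intervals of S100A16 and S100A4 include 1, so a difference was not detectable at this depth. After the GC correction the difference of S100A13 was 0.26, against 0.41 without it, and that of S100A16 was -0.35, against -0.20. The S100A4 partner MYH9 was at 88.3 against 88.9 FPKM.

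**Figure D2:**
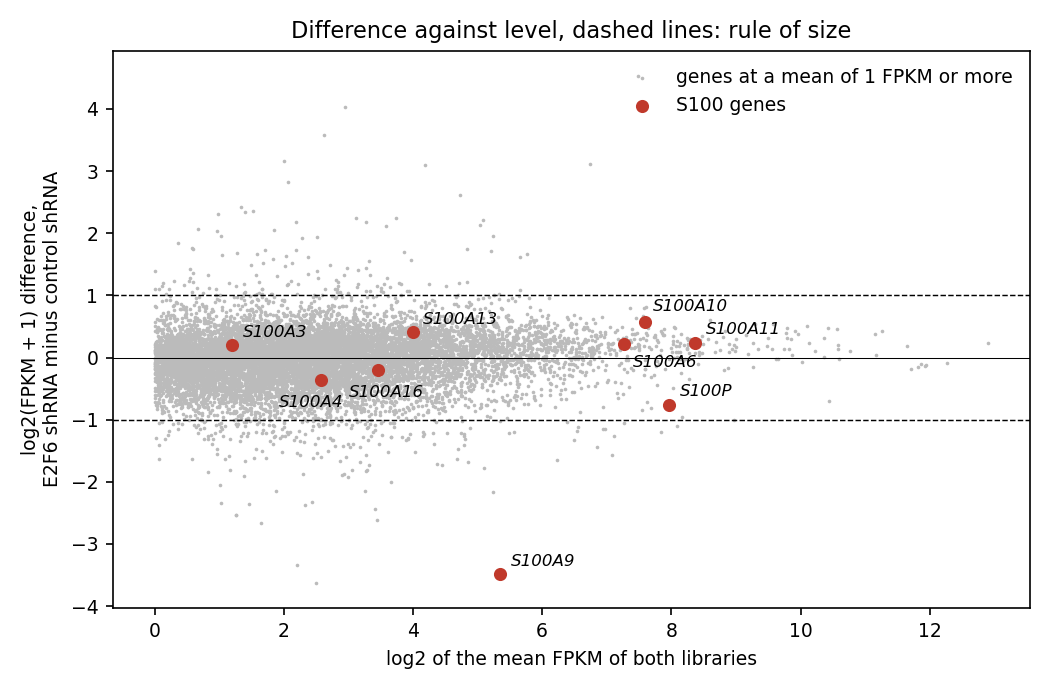
Difference in log2(FPKM + 1), E2F6 shRNA minus control shRNA, against the log2 of the mean FPKM for 11574 genes (grey), with the 9 S100 genes at a mean of 1 FPKM or more in red and dashed lines at the rule of size. S100A9 at -3.48 lies below the dashed line and the other 8 S100 genes lie between the lines.

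Among the members the order of levels differed between the libraries. The intervals used here rest on mean transcript lengths. In the E2F6 shRNA library it was S100A11, S100A10, S100P, S100A6, S100A13, S100A16, S100A9 and S100A4, and these intervals of neighbours overlapped only for S100A9 and S100A4. With the shortest transcript, S100P and S100A6 had 855 and 764 estimated fragments in that library. Their intervals are then wider, so the order of S100P and S100A6 there is not settled. In the control shRNA library it was S100P, S100A11, S100A10, S100A6, S100A9, S100A13, S100A16 and S100A4, with overlap between S100P and S100A11, between S100A10 and S100A6 and between S100A13 and S100A16. S100A9 was thus in place 7 of 8 in the E2F6 shRNA library and in place 5 of 8 in the control shRNA library.

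The summed level of all 12 S100 genes of the tables was close in the libraries, 984 FPKM in the E2F6 shRNA library and 1025 FPKM in the control shRNA library, a ratio of 0.960. S100A9 made up 0.598% of the sum in the E2F6 shRNA library and 7.40% in the control shRNA library. S100P made up 18.9% against 30.7%, S100A11 36.4% against 29.5% and S100A10 23.5% against 15.1%, again with the E2F6 shRNA library first. Without S100A9 the sum was 978 FPKM in the E2F6 shRNA library and 949 FPKM in the control shRNA library, a ratio of 1.03.

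**Figure D3:**
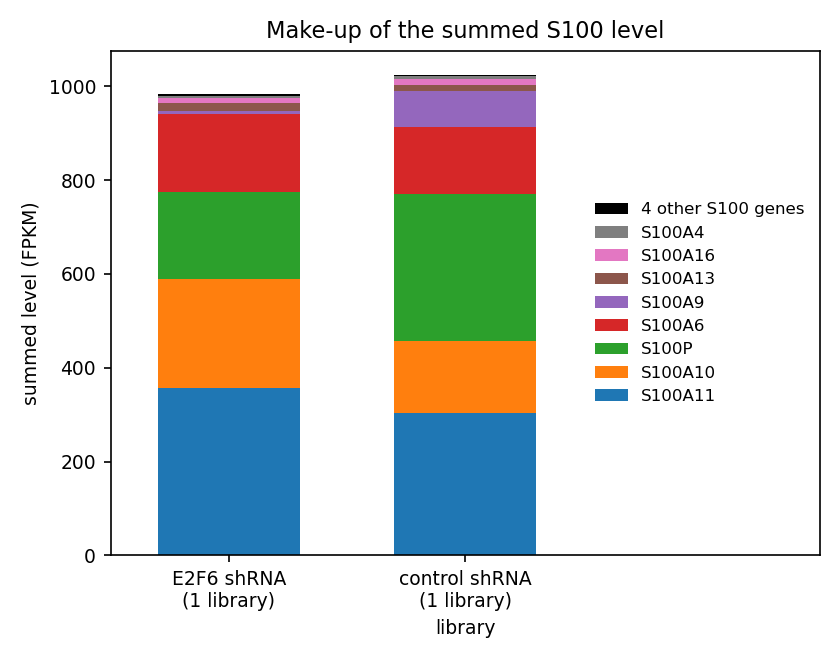
Summed level of the S100 genes in FPKM, stacked by gene, for the E2F6 shRNA library (left) and the control shRNA library (right). The totals are 984 and 1025 FPKM, with smaller parts of S100A9 and S100P and larger parts of S100A10 and S100A11 in the E2F6 shRNA library.

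The 4 other S100 genes of the tables were all at lower levels than the members, of which the lowest, S100A4, was above 5 FPKM in both libraries. S100A3, known from hair, was at 2.53 FPKM in the E2F6 shRNA library and 2.08 FPKM in the control shRNA library, a ratio of 1.21 (0.679 to 2.16). S100A2, known from keratinocytes, was at 0.277 FPKM in both libraries, from 3 estimated fragments in each. S100A14, an epithelial gene, was at 0.275 against 0.129 FPKM and S100A1, known from heart muscle, at 0.153 against 0.0393 FPKM. Those of S100A14 rest on 4 and 2 estimated fragments and those of S100A1 on 2 and 1, so no difference was detectable.

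All members but S100P lie in the S100 cluster of chromosome 1. In GENCODE release 29, which is built on GRCh38, the starts of S100A10 and S100A11 lie at -1363 and -1310 kb from that of S100A9, and those of S100A6, S100A4, S100A16 and S100A13 between 178 and 274 kb. Of 14 genes of the tables in this stretch 9 were at a mean of 1 FPKM or more, 8 of them S100 genes, and S100A9 was the only one past the rule of size. Past the rule in either direction were 3.23% of all genes at the minimum. The S100A9 difference of -3.48 stood beside 0.24 for S100A11, its nearest gene at that level on one side, and 0.22 for S100A6 on the other. S100A3 lies within the span of S100A4 on the same strand, with no shared exon bases in that release. A list of genes chosen as neighbours of the cluster, among them S100PBP, which lies elsewhere on the chromosome, had 1 of 19 higher, the enamel matrix gene TUFT1 at 10.2 FPKM in the E2F6 shRNA library and 4.43 FPKM in the control shRNA library. The median of that list was 0.15, and over all genes at the minimum 1.17% were higher.

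**Figure D4:**
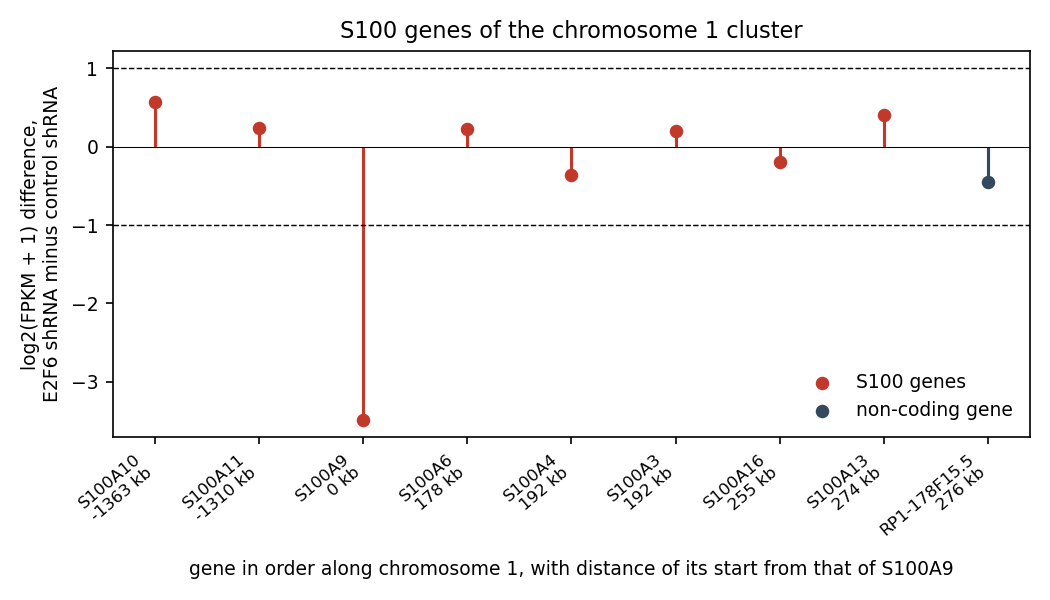
Difference in log2(FPKM + 1), E2F6 shRNA minus control shRNA, for the 9 genes at a mean of 1 FPKM or more in the chromosome 1 cluster, in chromosome order, with the distance of each start from that of S100A9 in kb and dashed lines at the rule of size. S100A9 stands at -3.48 between S100A11 at 0.24 and S100A6 at 0.22.

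Receptors and cell surface partners of S100 proteins were measured for 7 of 9 genes listed, with 4 at a mean of 1 FPKM or more and none past the rule (median 0.44). Over all genes at the minimum, 3.23% were past it in either direction. BSG (basigin), a receptor of S100A9, was at 38.3 FPKM in the E2F6 shRNA library and 31.3 FPKM in the control shRNA library. NPTN (neuroplastin), a receptor of S100A8, was at 53.9 against 35.5 FPKM, a ratio of 1.52 (1.38 to 1.68). The adhesion genes MCAM and ALCAM, both also reported as receptors of S100A8 and S100A9, went opposite ways, MCAM at 3.70 FPKM in the E2F6 shRNA library and 1.58 FPKM in the control shRNA library (difference 0.86) and ALCAM at 6.75 against 13.6 FPKM (difference -0.91). After the GC correction the differences were 0.71 for MCAM and -0.50 for ALCAM. AGER was at 0.561 FPKM in the E2F6 shRNA library and 0.651 FPKM in the control shRNA library. TLR4 was not analysed here.

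Binding partners inside the cell and related targets numbered 27 at a mean of 1 FPKM or more, and none passed the rule. The share past it in either direction was 3.23% over all genes at the minimum, so few would be looked for among 27. Their median was 0.08, with 19 above 0 and 8 below it, where 49.7% of all genes at the minimum were above 0. TPM1, which encodes a tropomyosin, and ANXA2 had the highest differences, 0.61 each, and S100PBP and DLC1, a tumour suppressor gene, the lowest, -0.59 and -0.56. EZR (ezrin), a partner of S100P, was at 67.9 FPKM in the E2F6 shRNA library and 50.6 FPKM in the control shRNA library.

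Transcription factors and signalling genes known to act on S100 genes in other cells had 1 of 14 lower, none higher and 13 not past the rule (2.06% lower and 1.17% higher over all genes at the minimum). Their median was -0.08, with 11 below 0, where 49.7% of all genes at the minimum were above 0. The gene lower by the rule was CEBPA, which encodes C/EBP alpha, a factor of hepatocytes and myeloid cells, at 67.8 FPKM in the E2F6 shRNA library and 202 FPKM in the control shRNA library, 2.98-fold lower (2.85 to 3.11). Its relatives CEBPB at 52.4 against 57.0 FPKM and CEBPD at 24.5 against 25.4 FPKM had differences of -0.12 and -0.05. STAT3 was at 7.85 against 7.92 FPKM, NFKB1 at 7.53 against 6.99 FPKM and HIF1A at 16.1 against 28.8 FPKM, each with the E2F6 shRNA library first. The HIF1A difference was -0.80, and -0.49 after the GC correction. CEBPA and S100A9 were thus both lower in the 1 E2F6 shRNA library, and whether the values are linked was not tested.

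Since S100A9 is a marker of myeloid cells, 14 other genes of these cells were looked at, and 5 of them were analysed. The summed level of these 5 was 2.32 FPKM in the E2F6 shRNA library and 5.98 FPKM in the control shRNA library, against 5.88 and 75.8 FPKM for S100A9 alone. CSF3R, the receptor of granulocyte colony-stimulating factor, was the only one at a mean of 1 FPKM or more, at 1.57 FPKM in the E2F6 shRNA library and 4.41 FPKM in the control shRNA library, and was lower by the rule. CD14 was at 0.159 against 0.424 FPKM and FCER1G at 0.180 against 0.981 FPKM, while AIF1 was at 0.236 against 0.158 FPKM. These rest on 3 and 8 estimated fragments for CD14, 2 and 10 for FCER1G and 3 and 2 for AIF1. The interval of each of these ratios includes 1, so no difference was detectable. ITGAM was at 0.172 FPKM in the E2F6 shRNA library and listed at 0 in the control shRNA library, from 5 and 0 estimated fragments. The part of these genes in the S100A9 difference was not tested. The hepatocyte markers summed to 2817 FPKM in the E2F6 shRNA library and 3732 FPKM in the control shRNA library. The largest part of both sums was AFP, at 1064 against 1721 FPKM. The differences of the markers were above 0 for 5 and below 0 for 7, with a median of -0.15. Of the 12 there were 2 lower and 1 higher by the rule (2.06% and 1.17% over all genes at the minimum). The 2 lower ones were ALB (albumin) at 77.6 against 173 FPKM and APOB at 138 against 318 FPKM, and the higher one was the liver factor HNF4A at 15.3 against 4.56 FPKM. Whether these levels are linked to those of the S100 genes was not tested.

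**Figure D5:**
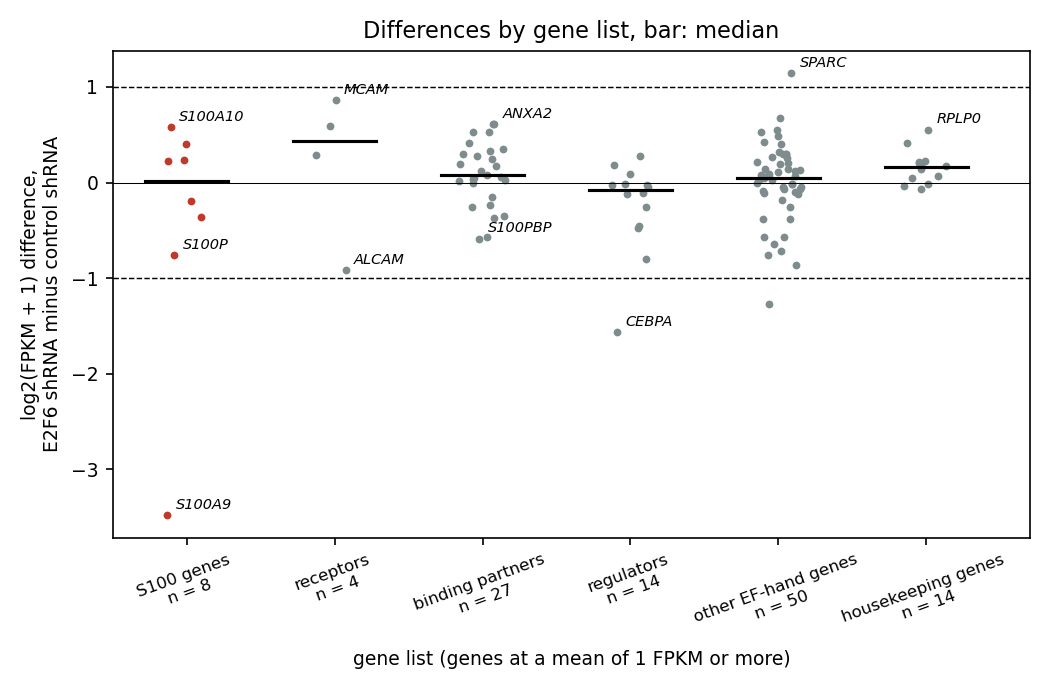
Difference in log2(FPKM + 1), E2F6 shRNA minus control shRNA, for each gene at a mean of 1 FPKM or more in 6 lists, with a black bar at the list's median and dashed lines at the rule of size. S100A9 at -3.48 lies below every gene of the other lists, in which CEBPA at -1.56 is lowest, and the medians run from -0.08 for regulators to 0.44 for the 4 receptors.

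Other genes of the EF-hand superfamily, such as calpains and actinins, numbered 50 at a mean of 1 FPKM or more, of which 1 was higher and 1 lower, with a median of 0.05. Over all genes at the minimum 1.17% were higher and 2.06% lower. SPARC, an extracellular matrix protein with an EF-hand domain, was at 15.3 FPKM in the E2F6 shRNA library and 6.38 FPKM in the control shRNA library, 2.40-fold higher (1.91 to 3.06). None of the 14 housekeeping genes passed the rule of size, with RPLP0 highest at 0.55 and YWHAZ lowest at -0.07.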

How the data were processed

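Total RNA of 2 Huh7 libraries was sequenced after mRNA library preparation. Each deposited table gives 1 value per gene, and the headers name no unit. The authors' values were taken as FPKM. In genes with 1 annotated transcript, multiplying by its length gave whole multiples of a single step (97.9% of 5162 values in the E2F6 shRNA library and 97.9% of 5452 in the control shRNA library, to a tolerance of 0.01 fragments). This alone would also hold for other units that divide counts by length. The values of the genes analysed summed to 245097 in the E2F6 shRNA library and 235513 in the control shRNA library, not to a fixed round total. The submitters' processing notes list HISAT2 2.0.4, StringTie 1.3.0 and the build GRCh37, while annotation and use of strand are not given in the sources used here. If the unit is FPKM, the steps imply totals of 14724836 and 17139211 fragments or reads. Of 21227 rows, 2 were left out, TGFB1, which had no value, and a row of spilled text.

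Fragments were estimated with mean transcript lengths of GENCODE release 29 (GRCh38, used for lengths, GC content and gene order), level intervals are exact Poisson, and ratio intervals exact conditional binomial. Shortest and longest transcripts were alternatives. Other alternatives were a pseudocount of 0.1, no minimum or a mean of 5 FPKM, median centring, quantile normalization, a TMM factor, a 1.5-fold threshold, protein-coding genes alone and a lowess correction on GC content (span 0.3). The members and lists were chosen with earlier results of these data known. Named genes were E2F6, all S100 genes, the members of each list past the rule (or, where none or more than 4 were, the 2 highest and 2 lowest) and the 3 nearest to S100A9. Other genes, as partners or relatives of these or as the largest part of a sum, were named after their values were seen. The values of 1 gene that the rule names are not reported here. Procedures were tested on simulated data. Computation used matplotlib 3.10.9, statsmodels 0.14.6, scipy 1.17.1, numpy 2.4.6 and pandas 2.3.3 under Python 3.11.15.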

Additional observations from a re-analysis of the deposited data

How the results depend on the processing

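S100A9 was lower by the rule of size under every alternative run, with differences from -3.67 to -3.47, and no member changed sign. S100P ranged from -0.88 to -0.75, S100A4 from -0.49 to -0.32, S100A16 from -0.35 to -0.18, S100A6 from 0.07 to 0.23, S100A11 from 0.13 to 0.25, S100A13 from 0.26 to 0.43 and S100A10 from 0.49 to 0.59. The values of S100A6, S100A11 and S100A13 nearest to 0, and that of S100A16 farthest from it, came with the GC correction. The median of the 8 members was -0.020 under quantile normalization and -0.14 after the GC correction, against 0.01, so its sign depends on these settings. With a 1.5-fold threshold 2 members were lower, S100A9 and S100P. Over all genes, 135 higher and 239 lower became 269 and 522 with a pseudocount of 0.1, 67 and 128 at a mean of 5 FPKM or more and 585 and 1080 with the 1.5-fold threshold. Among protein-coding genes alone 115 were higher and 199 lower, and with the GC correction, which was run on these genes, 100 and 142. TUFT1 and the hepatocyte marker ALB fell short of the rule after the GC correction. With a pseudocount of 0.1, 1 receptor was higher and 1 lower. With the shortest and longest transcripts the counting intervals of S100A4 and S100A16 still included 1, and those of the other 6 members still did not. Depth limits S100A1, S100A2 and S100A14, with 4 or fewer estimated fragments per library. No paired analysis was possible because there is a single library in each group.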
